A study of Mus musculus with 15 samples.

Results

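The genes described here are the ligands and receptors of the main axon guidance families in mouse cortex. They were chosen by symbol, as every semaphorin, ephrin, Slit and netrin gene and every plexin, neuropilin, Eph, Robo, Unc5 and Dcc gene that a fixed pattern of names matched and that held at least 150 counts over all 15 libraries. Of 56748 genes in the deposited counts table, 69 matched the names and 68 reached the minimum. Efna4, an ephrin-A gene, was the 1 gene below it. The 68 genes comprise 34 ligand genes (20 Sema, 4 Efna, 3 Efnb, 3 Slit and 4 Ntn) and 34 receptor genes (9 Plxn, 2 Nrp, 9 Epha, 5 Ephb, 4 Robo, 4 Unc5 and Dcc). The rule used no difference between groups, although it was set with earlier results of these data known.

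RNA was sequenced from the cortex of wildtype C57BL/6J mice killed 3 h after a single session of magnetic stimulation of the brain. One group of 5 animals received intermittent theta-burst stimulation (iTBS), in which short bursts come in trains separated by pauses. A second group of 5 received continuous theta-burst stimulation (cTBS), in which the bursts run without pauses, and the other 5 received sham stimulation. All groups share the strain and carry no transgene, while age and sex were not given in the sources used here. Sample titles name the somatosensory cortex whereas the design text names the sensorimotor cortex, so the tissue is called cortex below.

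Axon guidance molecules steer growing axons by attraction or repulsion. Semaphorins act through plexins, with neuropilins as co-receptors for most of the secreted class, and ephrins act through Eph receptor tyrosine kinases on touching cells. Slits act through Robo receptors, and netrins attract through Dcc and repel through Unc5 receptors. In the adult cortex many of these genes stay active and take part in the upkeep and remodelling of synapses, and several also work in blood vessels and glia.

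The libraries held between 15385070 and 47807723 counts, and depth moved with the groups. It averaged 4.02e+07 counts in cTBS (35545632 to 43770223), 2.99e+07 in sham (18484169 to 47807723) and 2.97e+07 in iTBS (15385070 to 37929975). The 68 genes together took 0.381 to 0.430% of each library. The share was 0.405 ± 0.0153% in sham, 0.409 ± 0.0121% in iTBS and 0.400 ± 0.0153% in cTBS (mean ± SD, n = 5 animals each). Markers of excitatory cortical neurons were high in every library, with Slc17a7, a vesicular glutamate transporter, at 859 to 1443 CPM (counts scaled to library size). Some features of the libraries moved with the groups. All 10 listed nuclear-retained noncoding RNAs lay lower in cTBS than in sham (median log2 fold change -0.998, 10 of 10 at an unadjusted p under 0.05), and their mean level was 7.87 ± 0.73 log2 CPM in sham, 7.94 ± 0.54 in iTBS and 6.98 ± 0.58 in cTBS (SD, n = 5). Sham replicate 4 stood apart from the other sham libraries in this level, at 6.68. All 10 striatal projection neuron markers lay higher in cTBS than in sham (median 0.67, 4 of 10 at an unadjusted p under 0.05), with a mean level of 4.53 to 6.48 log2 CPM in sham, 5.15 to 6.76 in iTBS and 5.17 to 6.76 in cTBS. Choroid plexus markers were high in sham 2, sham 5 and cTBS 4, where Ttr reached 232 to 249 CPM against at most 64.1 elsewhere, and thalamic markers were high in sham 2. Markers of several other cells also lay higher in cTBS than in sham, namely 5 of 5 for inhibitory neurons (median 0.25, 3 at an unadjusted p under 0.05), 6 of 6 for meningeal fibroblasts (0.27, 3), 6 of 6 for microglia (0.16, 2), 6 of 6 for oligodendrocytes (0.21, 1) and 5 of 5 for astrocytes (0.12, 1). Over all genes 6.8% lay higher at that threshold. Other lists were mixed or lower, with 3 of 5 excitatory neuron markers higher (0.0029), 4 of 7 endothelial and mural (0.029) and 2 of 3 precursor markers (0.0033). Of the choroid plexus markers 1 of 6 lay higher (-0.37), and of the thalamic markers 0 of 5 (-0.62). After iTBS 6 of 6 meningeal markers lay higher than in sham (0.33, 3). So did 7 of 7 endothelial and mural (0.095, 1) and 10 of 10 striatal markers (0.26, 0). Of the thalamic markers 0 of 5 lay higher (-0.48, 2 lower at that threshold). Over all genes 0.952% lay higher and 0.974% lower at that threshold. Choroid plexus and oligodendrocyte markers each had 0 of 6 higher (-1.05 and -0.077). Excitatory and inhibitory markers each had 4 of 5 (0.025 and 0.040) and microglia 3 of 6 (0.0059). Astrocytes had 1 of 5 and precursors 1 of 3 (both -0.067). Because the tissue was sequenced in bulk, fewer cells of a type and less RNA per cell cannot be told apart.

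Levels of different genes are compared here only as CPM per kilobase of annotated exon, averaged over the sham animals. Sema7a, a membrane-anchored semaphorin, was the highest ligand at 68.04 ± 8.46 CPM per kb (SD, n = 5), followed by Sema6b at 29.4 ± 5.39 and Efnb3 at 19.7 ± 2.72. The spreads of Sema7a and Sema6b did not meet. Among receptors Ephb6 (36.4 ± 2.64 CPM per kb), Epha4 (30.5 ± 2.32) and Unc5a (30.3 ± 5.89) were highest. The spread of Unc5a met those of both Epha4 and Ephb6, and Plxnd1 came next at 20.3 ± 2.18. The lowest ligand was Sema3b (0.521 ± 0.101 CPM per kb). The lowest receptors were Epha2 (0.277 ± 0.0766) and Epha1 (0.225 ± 0.0793), whose spreads met. Netrins were uniformly low, from 1.76 ± 0.219 CPM per kb for Ntn1 to 2.17 ± 0.129 for Ntn4, and these neighbours did not differ beyond their spread. The Slit genes fell into a pair of like level, Slit1 (11.3 ± 1.74 CPM per kb) and Slit3 (10.2 ± 1.45), above Slit2 (2.64 ± 0.185).

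**Figure D1:**
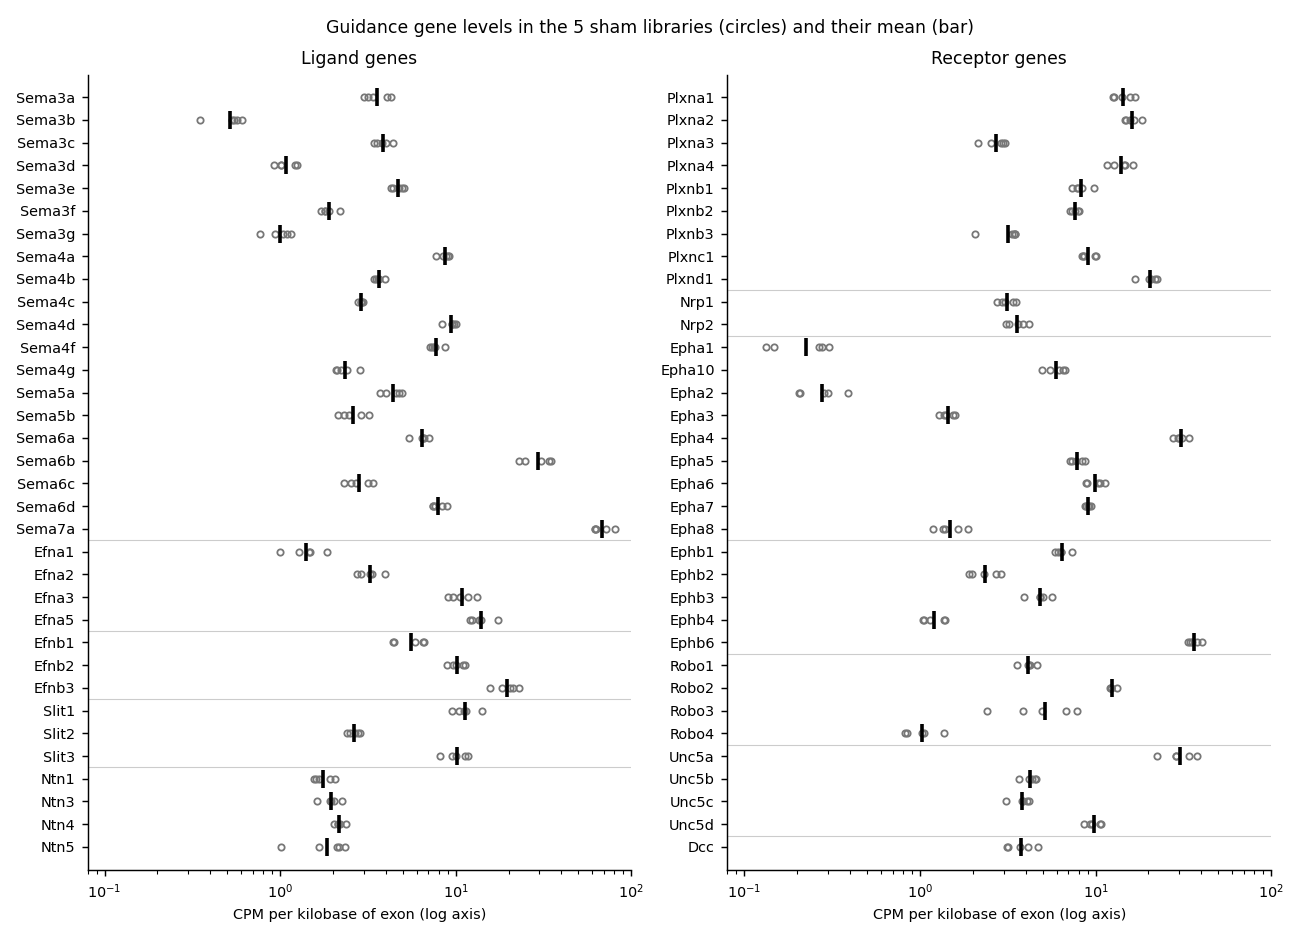
Level of each of the 34 ligand genes (left) and 34 receptor genes (right) in the 5 sham libraries, as CPM per kilobase of exon on a log axis. Circles are libraries, the vertical bar is their mean and grey lines separate families. Sema7a is the highest ligand, Epha1 and Epha2 are the lowest receptors with overlapping libraries, and Robo3 has the widest scatter of libraries among the more abundant receptors.

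Most of the genes held a steady level from animal to animal. The coefficient of variation over all 15 libraries had a median of 11.7% across the 68 genes, from 5.20% for Sema4f to 50.1% for Robo3. It was under 10% for 24 genes and over 20% for 6 genes, namely Robo3, Epha1, Ntn5, Epha2, Nrp2 and Robo4. All genes tested whose mean level lay in the range of the 68 had a median of 13.1%.

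After iTBS no guidance gene differed from sham after adjustment. By edgeR's quasi-likelihood test with Benjamini-Hochberg adjustment over 22998 genes, 0 of 68 passed an adjusted p of 0.05, where 0% of all genes tested passed. At an unadjusted p under 0.05 there were 2 of 68 genes, the ephrin ligand Efnb1 and the semaphorin Sema4b, beside 1.93% of all genes tested. Both lay lower after iTBS, so there were 0 higher beside 0.952% of all genes and 2 lower beside 0.974%. The DESeq2 Wald test, limma-trend on the deposited values and limma-voom with quality weights each called 0 of 68 as well. The fold changes had a median of 0.015 on the log2 scale over the 68 genes against -0.00097 over all genes, 38 of 68 lay above 0 beside 49.5% of all genes, and 65 of 68 lay within 0.2 of 0, where 78.6% of all genes tested did. No gene had iTBS and sham libraries that did not overlap, beside 0.452% of all genes.

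After cTBS the guidance genes with the smallest p-values against sham were Robo3, Robo4, Epha10 (all receptors) and the semaphorin Sema4a, at a lower level, and the ephrins Efnb3 and Efnb2 and the netrin receptor Unc5b, at a higher level, but none passed the adjusted threshold. Sparser genes differed by more than some of these at a larger p, such as Epha1 (-0.70 ± 0.40), Epha2 (-0.33 ± 0.25) and Ntn5 (-0.31 ± 0.25). By edgeR's quasi-likelihood test 0 of 68 passed, where 0% of all genes did. At an unadjusted p under 0.05 there were 7 of 68, which is 10.3% beside 24.4% of all genes tested. Of these, 3 lay higher after cTBS beside 6.8% of all genes and 4 lay lower beside 17.6%. The median log2 fold change was 0.013 against -0.023 over all genes, and 55 of 68 lay within 0.2 of 0, where 55.9% of all genes did. The number above 0 was 38 of 68 with TMM scaling, beside 46.5% of all genes. With DESeq2 size factors it was 47 of 68, beside 11832 of 22998 genes. In 2 genes, Efnb3 and Sema4a, the cTBS and sham libraries did not overlap, beside 1.34% of all genes. The DESeq2 Wald test called 1 of 68, Efnb3 (log2 fold change 0.41 ± 0.12, adjusted p = 0.0492), beside 1.04% of all genes, limma-trend called 0, and limma-voom with quality weights called 6 beside 23.7% of all genes. Without sham 4, the sham library with the lowest nuclear RNA level, edgeR called 5 of 68 genes in this comparison (Efnb2, Efnb3, Robo3, Robo4 and Unc5b). In that fit 5726 of all 23508 genes tested were called.

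Between the 2 active protocols the guidance genes with the smallest p-values were Robo3, Robo4, Epha10 and Sema4a, higher after iTBS than after cTBS, and Efnb1, Efnb2, Efnb3 and Efna2, lower after iTBS, and again none passed the adjusted threshold. Epha1 (0.77 ± 0.40), Ntn5 (0.41 ± 0.25) and Nrp2 (-0.33 ± 0.19) differed by more than some of these, also at a larger p. By edgeR's quasi-likelihood test 0 of 68 passed, where 0% of all genes did, and the smallest adjusted p was 0.0838. At an unadjusted p under 0.05 there were 8 of 68, or 11.8% beside 30.6% of all genes. Of these, 4 lay higher after iTBS beside 20% of all genes and 4 lay lower beside 10.6%. The median log2 fold change was -0.014 against 0.027 over all genes, and 58 of 68 lay within 0.2 of 0, where 52% of all genes did. Of the 68 genes 31 lay above 0 with TMM scaling, beside 53.9% of all genes. With DESeq2 size factors 22 did, beside 11383 of 22998 genes. In 5 genes, Efna2, Efnb2, Efnb3, Robo3 and Robo4, the iTBS and cTBS libraries did not overlap, beside 3.92% of all genes. The DESeq2 Wald test called 4 of 68 (Efnb3, Epha10, Robo3 and Robo4) beside 5.96% of all genes, limma-trend called 0, and limma-voom with quality weights called 7 beside 29.8% of all genes. By edgeR 6 of 68 genes were called without sham 4, 6 without iTBS 1 and 4 without cTBS 5. In these fits 3637 of 23508, 4474 of 23481 and 3380 of 23449 genes tested were called in all. The comparisons of iTBS and cTBS with sham share the sham libraries, and those with cTBS share the cTBS libraries, so they are not independent of each other.

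**Figure D2:**
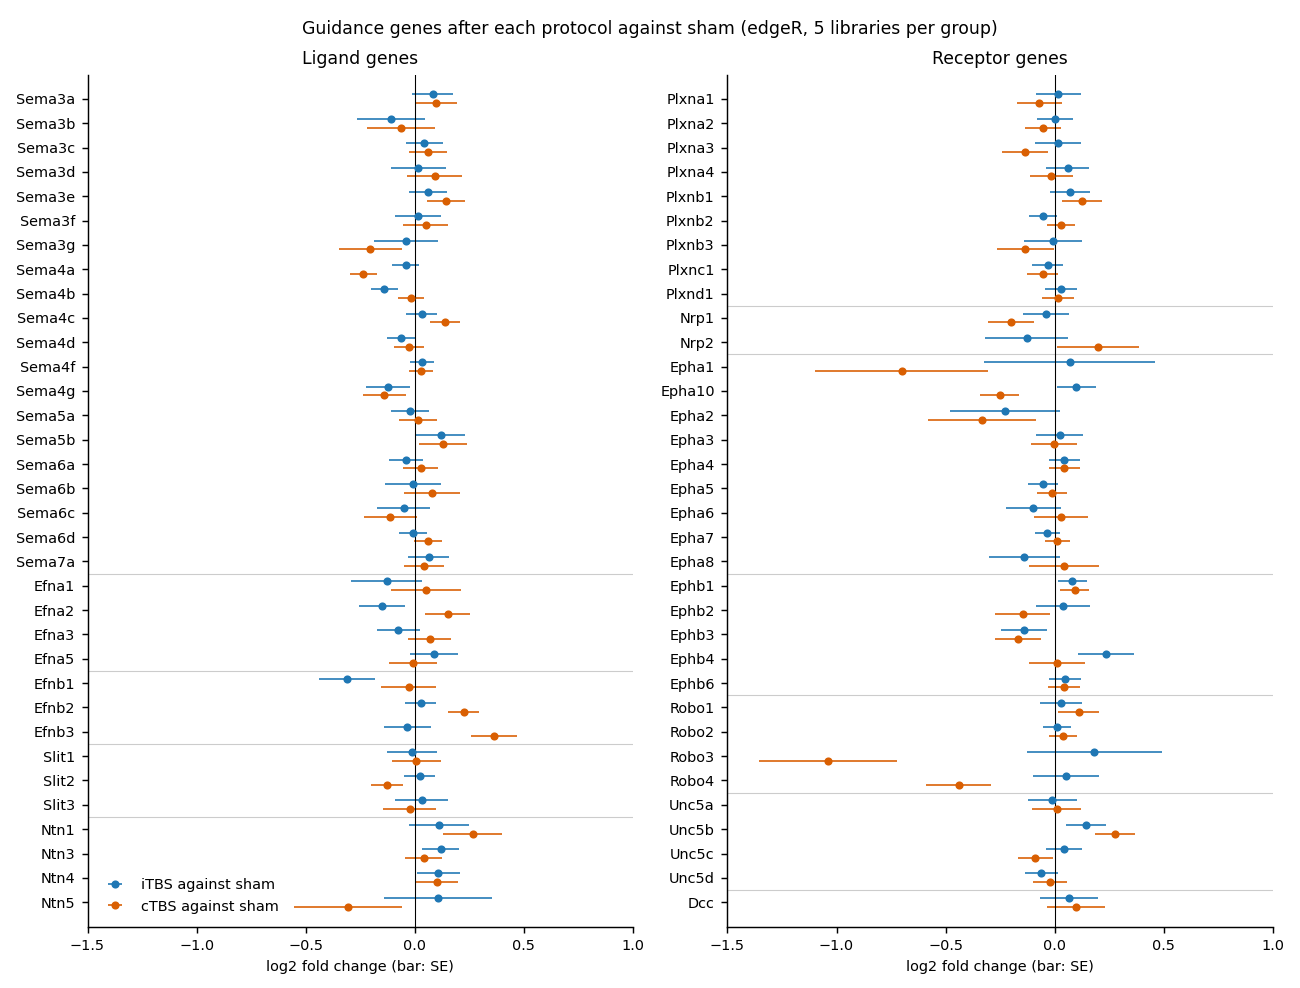
Log2 fold change of each gene after iTBS (blue) and cTBS (orange) against sham, from edgeR with 5 libraries per group. Points are estimates, bars are standard errors, and ligands are on the left and receptors on the right. Most points lie within 0.2 of 0, while Robo3 (-1.04), Epha1 (-0.70) and Robo4 (-0.44) after cTBS lie farthest to the left and Efnb3 after cTBS (0.36) farthest to the right.

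Levels in single libraries are given below in CPM after TMM scaling, always for replicates 1 to 5 of a group in that order. Fold changes are on the log2 scale with their standard error from edgeR, and adjusted p-values are from its quasi-likelihood test with Benjamini-Hochberg adjustment over all genes tested.

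The ephrin-B ligands span the membrane and can signal into the cell that carries them as well as into the cell that meets them. Their summed level was 152 ± 10.4 CPM in sham, 148 ± 15.8 in iTBS and 181 ± 9.22 in cTBS (SD, n = 5), and the lowest cTBS library (169) lay above the highest of iTBS (167) and sham (163). Efnb3 read 67.5, 72.6, 50.05, 58.6 and 64.7 CPM in sham, 66.3, 65.2, 54.8, 47.8 and 71.9 in iTBS and 85.5, 86.3, 74.6, 75.8 and 81.1 in cTBS. Every cTBS library lay above every sham and iTBS library, and sham and iTBS overlapped. The difference from sham was 0.36 ± 0.11 (SE, adjusted p = 0.144) and that of iTBS from cTBS was -0.40 ± 0.11 (SE, adjusted p = 0.0838), whereas iTBS differed from sham by -0.03 ± 0.11. Across libraries Efnb3 varied with the striatal marker level, but not past the adjusted threshold (r = 0.76, p = 0.00262, adjusted p = 0.0540, rho = 0.76, p = 0.00177, adjusted p = 0.0748, from permutations described below), with r = 0.74 without sham 2 and cTBS 3. When that level was a covariate the cTBS difference was 0.20 (adjusted p = 0.167), and after adding nuclear RNA as a covariate it was 0.11 (adjusted p = 0.885). Beside nuclear RNA alone the cTBS difference from sham was 0.31 ± 0.12 (SE, adjusted p = 0.835). That of iTBS from cTBS was then -0.35 ± 0.12 (SE, adjusted p = 0.555). Efnb2, the ephrin that Ephb4 meets in blood vessels, read 68.5, 61.3, 65.9, 77.97 and 75.3 CPM in sham, 73.8, 74.98, 62.8, 68.01 and 76.004 in iTBS and 87.1, 84.9, 77.6, 81.5 and 76.7 in cTBS. All cTBS libraries lay above all iTBS libraries, while sham 4 reached into the cTBS range. The cTBS difference was 0.22 ± 0.07 (SE, adjusted p = 0.144) from sham, and iTBS lay below cTBS by -0.20 ± 0.07 (SE, adjusted p = 0.0969). Without sham 4 the cTBS difference of Efnb2 was 0.32 (adjusted p = 0.0173), and when nuclear RNA was a covariate it was 0.13 ± 0.07 (SE, adjusted p = 0.840) and the difference between the protocols -0.10 ± 0.07.

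Efnb1 had the smallest p of the guidance genes in iTBS against sham. It read 15.4, 15.2, 20.2, 22.6 and 22.8 CPM in sham, 15.4, 13.8, 14.3, 15.1 and 19.1 in iTBS and 17.1, 19.6, 16.4, 22.1 and 19.4 in cTBS. The iTBS libraries were low with the exception of iTBS 5, and sham 1 and sham 2 were as low as most of them, so the groups overlapped. The difference from sham was -0.31 ± 0.13 (SE, adjusted p = 1.000) at an unadjusted p of 0.0273, and iTBS lay below cTBS by -0.28 ± 0.13 (SE, adjusted p = 0.146). Beside nuclear RNA as a covariate these were -0.29 ± 0.11 and -0.11 ± 0.13. All 3 ephrin-B genes lay lower in iTBS than in cTBS, while against sham the difference after cTBS was above 0 for Efnb3 and Efnb2 and -0.03 ± 0.13 for Efnb1. 

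The Efnb2 promoter is shown because this gene is 1 of the few whose level separated the active protocols and whose promoter was in the RefSeq table of build GRCm38.p6. The 250 bases before its annotated start (chr8:8661243-8661492, minus strand, printed 5′ to 3′ along the gene) hold 1 copy of TGACG, the core of the cAMP response element, in capitals. 
Efnb2: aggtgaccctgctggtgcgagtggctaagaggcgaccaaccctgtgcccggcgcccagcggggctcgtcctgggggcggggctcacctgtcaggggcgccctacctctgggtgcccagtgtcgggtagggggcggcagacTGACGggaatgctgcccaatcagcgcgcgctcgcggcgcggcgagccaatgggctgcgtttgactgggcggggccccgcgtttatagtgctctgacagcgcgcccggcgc
No full response element (TGACGTCA) and no EGR motif (GCGNGGGCG) was found in this window on either strand. Efnb3 had no entry in the table.

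The ephrin-A ligands are held to the membrane by a lipid anchor and chiefly bind EphA receptors. Efna5, the ephrin-A with the most counts, read 50.3, 48.7, 56.1, 70.3 and 54.7 CPM in sham, 59.3, 51.1, 64.1, 60.7 and 62.98 in iTBS and 48.5, 56.03, 57.4, 69.04 and 47.95 in cTBS. Its groups overlapped throughout, with differences from sham of 0.09 ± 0.11 after iTBS and -0.01 ± 0.11 after cTBS. The difference of iTBS from cTBS was 0.10 ± 0.11, and 0.28 ± 0.10 (SE, adjusted p = 0.555) beside nuclear RNA as a covariate. Efna2 read 6.12, 5.88, 6.97, 8.43 and 7.12 CPM in sham, 6.62, 6.14, 6.01, 5.58 and 6.83 in iTBS and 7.16, 7.39, 8.05, 8.45 and 7.35 in cTBS. The lowest cTBS library lay above the highest iTBS library, and sham spanned both. The iTBS level lay below cTBS by -0.30 ± 0.10 (SE, adjusted p = 0.0912), and the differences from sham were -0.15 ± 0.11 after iTBS and 0.15 ± 0.10 after cTBS. When nuclear RNA was a covariate the difference between the protocols was -0.14 ± 0.10, and that of cTBS from sham was 0.0058. The other ephrin-A genes, Efna1 and Efna3, had fold changes no larger than 0.18 in size in any comparison.

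Among the 20 semaphorins the membrane-spanning class 4 held all genes that the rule on small p-values picked. Sema4a read 49.8, 41.6, 49.1, 46.02 and 47.3 CPM in sham, 45.2, 47.04, 39.2, 49.4 and 46.1 in iTBS and 38.3, 40.9, 40.2, 39.1 and 40.1 in cTBS. The cTBS libraries were tightly grouped and all lay below all sham libraries, by a narrow margin between cTBS 2 and sham 2, while iTBS 3 lay in the cTBS range. The cTBS difference was -0.24 ± 0.06 (SE, adjusted p = 0.144) from sham, with the smallest unadjusted p of all guidance genes in that comparison (0.00171), and iTBS lay above cTBS by 0.19 ± 0.06 (SE, adjusted p = 0.0849). Against sham, iTBS differed by -0.04 ± 0.06. Fitted beside the nuclear RNA level, the cTBS difference was -0.20 ± 0.07.

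Sema4b read 19.9, 19.4, 20.5, 22.5 and 20.7 CPM in sham, 17.8, 17.4, 18.7, 19.6 and 20.1 in iTBS and 19.4, 21.1, 19.2, 21.5 and 20.8 in cTBS. The iTBS libraries of replicates 1 to 3 lay below all sham libraries and the other iTBS libraries lay among them, and the difference was -0.14 ± 0.06 (SE, adjusted p = 1.000). Sema4c read 13.5, 13.3, 12.8, 13.2 and 13.6 CPM in sham, 12.02, 15.4, 13.03, 12.9 and 14.5 in iTBS and 13.5, 14.9, 15.2, 14.8 and 14.7 in cTBS. The cTBS libraries other than cTBS 1 lay above all sham libraries, and the difference from sham was 0.14 ± 0.07 (SE, adjusted p = 0.226). Sema4g read 18.1, 24.7, 19.3, 18.3 and 20.8 CPM in sham, 16.1, 19.4, 17.96, 18.9 and 20.6 in iTBS and 15.3, 21.4, 17.6, 18.9 and 18.7 in cTBS. Sham 2 was its highest library, and the iTBS difference of -0.12 ± 0.10 (SE, adjusted p = 1.000) from sham was 0.012 without sham 2, sham 5 and cTBS 4.

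Sema7a, the semaphorin with the most counts, read 208, 205, 204, 267 and 238 CPM in sham, 261, 201, 260.0, 223 and 227 in iTBS and 235, 213, 250.4, 251 and 206 in cTBS. All 3 groups overlapped, with differences from sham of 0.06 ± 0.09 after iTBS and 0.04 ± 0.09 after cTBS. The difference of iTBS from cTBS was 0.02 ± 0.09, and 0.21 ± 0.08 (SE, adjusted p = 0.564) beside nuclear RNA as a covariate. The summed semaphorin level was 959 ± 68.6 CPM in sham, 965 ± 53.0 in iTBS and 980 ± 32.5 in cTBS (SD, n = 5). Of the 20 genes, 9 lay above sham after iTBS and 13 after cTBS, with medians of -0.0084 and 0.035. The secreted class 3 genes included Sema3e (4.69 ± 0.332 CPM per kb in sham) and Sema3a (3.56 ± 0.561). The cTBS differences of this class from sham ran from -0.20 ± 0.15 for Sema3g to 0.14 ± 0.09 for Sema3e. Beside nuclear RNA as a covariate these values were -0.13 ± 0.16 and 0.07 ± 0.10.

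Slits and netrins are secreted, and no Slit or netrin gene had an unadjusted p under 0.05 in any comparison. Slit1 read 66.02, 56.2, 61.5, 67.5 and 83.6 CPM in sham, 63.6, 58.8, 65.97, 62.1 and 81.2 in iTBS and 62.1, 65.6, 56.8, 69.8 and 82.5 in cTBS. Replicate 5 was the highest library in each group, and the groups overlapped, with differences from sham of -0.01 ± 0.11 and 0.01 ± 0.11. The largest Slit difference from sham was that of Slit2 after cTBS, -0.13 ± 0.07 (SE, adjusted p = 0.276). Ntn1, the best known netrin, read 10.002, 10.4, 9.83, 12.9 and 12.1 CPM in sham, 12.4, 14.9, 10.4, 10.2 and 11.8 in iTBS and 14.6, 17.2, 10.5, 11.1 and 13.3 in cTBS. The highest values were cTBS 2, iTBS 2 and cTBS 1, the groups overlapped, and the cTBS difference was 0.27 ± 0.14 (SE, adjusted p = 0.234). Ntn3 read 9.97, 8.28, 11.5, 10.4 and 9.78 CPM in sham, 11.7, 10.5, 10.5, 10.5 and 10.98 in iTBS and 10.6, 10.2, 11.1, 9.36 and 9.96 in cTBS. Sham 2 and cTBS 4 were its lowest libraries, and the iTBS difference was 0.12 ± 0.08 (SE, adjusted p = 1.000). Ntn3 lies in the same span and strand as Tbc1d24, which held 61281 counts against 5125, so reads of the pair may have been divided by the counting. Ntn5 varied more (4.11 ± 1.18 CPM in sham, 3.32 ± 1.31 CPM in cTBS), with a cTBS difference of -0.31 ± 0.25 (SE, adjusted p = 0.446).

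The plexins are the main semaphorin receptors. Their summed level was 1008 ± 77.004 CPM in sham, 1021 ± 70.8 in iTBS and 993 ± 76.9 in cTBS (SD, n = 5). Plxna2, a receptor of class 6 semaphorins, read 270.1, 257, 253, 285 and 315 CPM in sham, 267, 263, 276, 274 and 302 in iTBS and 269, 253, 221, 298 and 289 in cTBS. Sham 5 was the highest library and cTBS 3 the lowest, and the differences from sham were 0.00 ± 0.08 after iTBS and -0.05 ± 0.08 after cTBS. Across the 9 plexins the differences from sham ran from -0.05 to 0.07 after iTBS and from -0.14 to 0.12 after cTBS, and the largest in size was that of Plxna3 after cTBS, which was 0.07 ± 0.09 beside nuclear RNA as a covariate. None had an unadjusted p under 0.05 in the main fit. Other plexins differed by more beside nuclear RNA as a covariate. Plxna1 then lay at -0.22 ± 0.09 in cTBS against sham and 0.25 ± 0.10 in iTBS against cTBS, from -0.07 and 0.09 without it. Plxnc1 lay at -0.16 ± 0.07 and 0.14 ± 0.07, from -0.05 and 0.02. Nrp2, a co-receptor of secreted semaphorins, read 42.6, 45.99, 37.9, 36.5 and 49.3 CPM in sham, 32.7, 48.9, 25.4, 39.5 and 46.8 in iTBS and 45.9, 70.98, 31.05, 46.5 and 48.9 in cTBS. It was lowest in iTBS 3 and highest in cTBS 2, and the groups overlapped. The differences from sham were -0.13 ± 0.19 after iTBS and 0.20 ± 0.19 after cTBS, and -0.25 and -0.077 with the striatal level as a covariate. Nrp1 was steadier, at 30.7 ± 3.15 CPM in sham and 26.7 ± 3.08 CPM in cTBS, with a cTBS difference of -0.20 ± 0.11 (SE, adjusted p = 0.243) that was -0.31 ± 0.11 beside nuclear RNA as a covariate.

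Eph receptors are the largest family of receptor tyrosine kinases. Epha4, which binds both ephrin classes, read 249.9, 239, 223, 274 and 242 CPM in sham, 254, 245, 254, 238 and 273 in iTBS and 247, 229, 236, 286 and 268 in cTBS. The groups overlapped and the differences from sham were 0.04 ± 0.07 after iTBS and 0.04 ± 0.07 after cTBS. Ephb6, a receptor whose kinase domain lacks activity, read 143, 131, 127, 152 and 134 CPM in sham, 155, 138, 142, 135 and 139 in iTBS and 149, 127, 159, 147 and 125 in cTBS. It too overlapped across groups, with differences of 0.05 ± 0.07 and 0.04 ± 0.07.

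Epha10, also a receptor without kinase activity, read 48.1, 35.5, 47.03, 39.9 and 44.3 CPM in sham, 37.1, 46.98, 46.6, 50.7 and 48.4 in iTBS and 33.4, 38.5, 36.6, 35.4 and 36.4 in cTBS. The cTBS libraries were low and close together, and sham 2 and iTBS 1 reached into their range. The cTBS difference from sham was -0.25 ± 0.09 (SE, adjusted p = 0.144), and iTBS lay above cTBS by 0.35 ± 0.09 (SE, adjusted p = 0.0838), at the smallest unadjusted p of the guidance genes in that comparison (0.00115). Beside nuclear RNA as a covariate these were -0.13 ± 0.09 and 0.22 ± 0.09. An antisense gene, 1700125G02Rik, overlaps Epha10 with 320 counts against 20247.

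Ephb4, the vascular receptor of Efnb2, read 6.33, 4.91, 4.84, 6.43 and 5.26 CPM in sham, 8.16, 5.75, 6.01, 6.65 and 6.16 in iTBS and 5.58, 4.76, 6.03, 5.08 and 6.65 in cTBS. The highest library was iTBS 1, all groups overlapped, and the iTBS difference from sham was 0.24 ± 0.13 (SE, adjusted p = 1.000). All 7 markers of endothelial and mural cells also lay higher after iTBS than in sham (median 0.095). Their part in the Ephb4 difference was not tested. Ephb3 read 31.8, 25.9, 33.5, 37.6 and 32.2 CPM in sham, 28.9, 23.1, 30.6, 29.2 and 34.5 in iTBS and 25.5, 26.2, 30.5, 32.3 and 28.8 in cTBS. Replicate 2 was low in sham and iTBS, and the differences from sham were -0.14 ± 0.11 (SE, adjusted p = 1.000) after iTBS and -0.17 ± 0.11 after cTBS, the latter -0.29 ± 0.11 beside nuclear RNA as a covariate. Epha1 was the sparsest member, with 356 counts in all, and read 0.883 ± 0.312 CPM in sham, 0.927 ± 0.396 CPM in iTBS and 0.536 ± 0.213 CPM in cTBS (SD, n = 5). Its cTBS difference of -0.70 ± 0.40 (SE, adjusted p = 0.273) had the largest error of any guidance gene, and iTBS lay above cTBS by 0.77 ± 0.40 (SE, adjusted p = 0.194). When nuclear RNA was a covariate these values were 0.00096 ± 0.31 and -0.04 ± 0.33. Zyx lies across Epha1 on the opposite strand with 18073 counts.

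The Robo family held the most variable guidance gene. Robo1 and Robo2 are the main Slit receptors of the brain. Robo2 read 208, 209, 205, 225 and 208 CPM in sham, 205, 233, 199.5, 199.7 and 226 in iTBS and 225, 210.5, 192, 236 and 219 in cTBS. Sham 4 stood above the other sham libraries, the groups overlapped, and the differences from sham were 0.01 ± 0.06 after iTBS and 0.04 ± 0.06 after cTBS. Robo3, known from commissural axons, where it offsets Slit repulsion before the midline is crossed, read 46.7, 26.5, 53.8, 16.4 and 33.9 CPM in sham, 24.1, 50.1, 44.7, 56.3 and 24.8 in iTBS and 11.04, 21.9, 20.9, 11.7 and 20.3 in cTBS. All cTBS libraries were low, and lay below all iTBS libraries, while sham 4 lay within the cTBS range. The group means were 35.4 ± 15.1 CPM in sham, 39.998 ± 14.8 CPM in iTBS and 17.2 ± 5.32 CPM in cTBS (SD, n = 5). The cTBS difference from sham was -1.04 ± 0.32 (SE, adjusted p = 0.144), iTBS lay above cTBS by 1.22 ± 0.32 (SE, adjusted p = 0.0838), and iTBS differed from sham by 0.18 ± 0.31. Without sham 4 the cTBS difference was -1.17 (adjusted p = 0.0173). When nuclear RNA was a covariate it was -0.20 ± 0.13 (SE, adjusted p = 0.860), and with the striatal level added it was -0.033 (adjusted p = 0.981). The difference between the protocols was 0.33 ± 0.14 (SE, adjusted p = 0.585) beside nuclear RNA.

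Robo4, a Robo of the endothelium, read 5.47, 4.37, 7.28, 4.46 and 5.59 CPM in sham, 4.99, 6.59, 5.38, 5.14 and 5.94 in iTBS and 3.49, 3.84, 4.35, 3.39 and 4.88 in cTBS. The cTBS libraries were lowest, all below all iTBS libraries, and sham 2 and sham 4 lay among them. The cTBS difference was -0.44 ± 0.15 (SE, adjusted p = 0.144) from sham and iTBS lay above cTBS by 0.49 ± 0.15 (SE, adjusted p = 0.0838). Fitted beside nuclear RNA these were -0.22 ± 0.14 and 0.27 ± 0.14. Markers of endothelial and mural cells had a mean level of 3.89 ± 0.10 log2 CPM in sham and 3.89 ± 0.18 in cTBS (SD, n = 5), and 0 of the 7 had an unadjusted p under 0.05 between these groups. In iTBS their level was 4.03 ± 0.09, and 6 of the 7 lay higher than in cTBS (median log2 fold change 0.13, 1 at an unadjusted p under 0.05), the same direction as Robo4. The part of these cells in the Robo4 difference was not tested. 

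Robo3 and Robo4 are neighbours on chromosome 9 and both lay lower after cTBS than after iTBS, so the RefSeq sequence upstream of each start is shown, from 250 to 81 bases before it on build GRCm38.p6 (chr9:37433256-37433425, minus strand, and chr9:37401722-37401891, plus strand), printed 5′ to 3′ along each gene. 
Robo3: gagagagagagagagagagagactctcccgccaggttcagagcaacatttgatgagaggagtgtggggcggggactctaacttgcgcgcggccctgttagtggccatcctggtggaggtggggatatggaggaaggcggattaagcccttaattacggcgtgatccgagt
Robo4: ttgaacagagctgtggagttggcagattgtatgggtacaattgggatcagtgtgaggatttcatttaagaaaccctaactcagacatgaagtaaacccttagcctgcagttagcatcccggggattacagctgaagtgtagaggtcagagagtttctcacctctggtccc
Neither TGACG nor the EGR motif was found in the 250 bases before either start, so no letters are in capitals. The windows differ in composition, with 12 CpG dinucleotides in the 250 bases before Robo3 and 2 before Robo4.

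**Figure D3:**
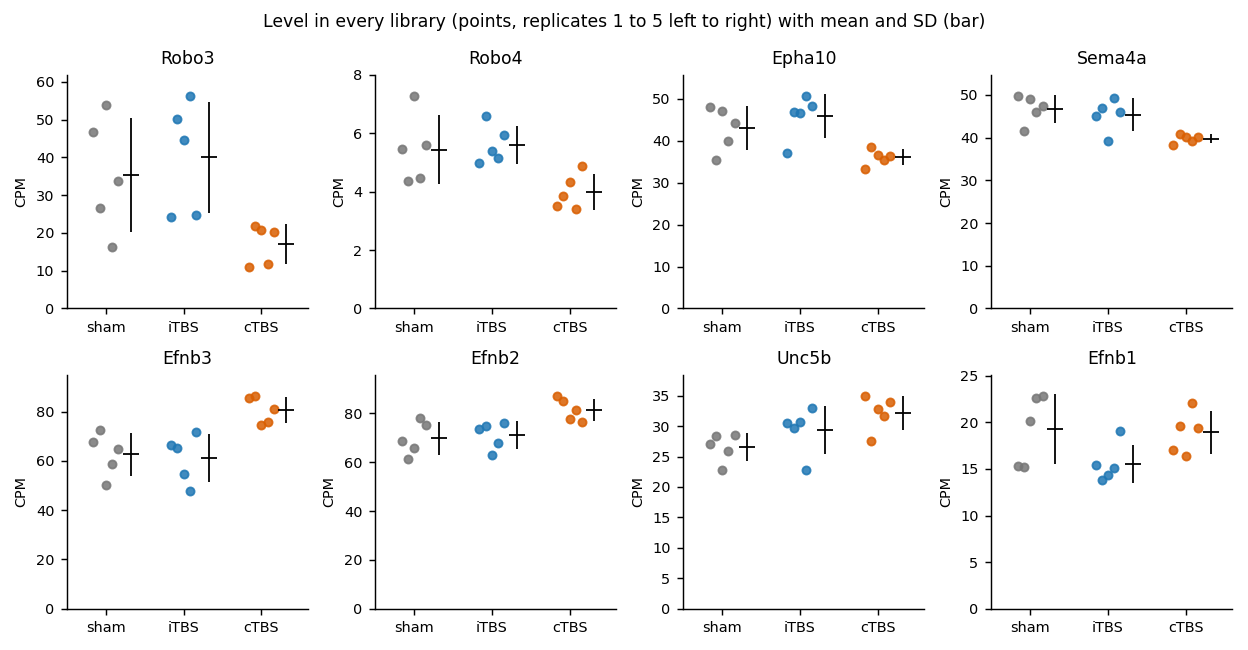
CPM of 8 guidance genes in every library, with sham in grey, iTBS in blue and cTBS in orange. Points are libraries and the black bar is the mean with its SD (n = 5). For Efnb3 all cTBS points lie above all others, and for Robo3 and Robo4 all cTBS points lie below all iTBS points while sham reaches down to them.

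Netrin receptors divide into Dcc and the Unc5 family. Dcc read 54.04, 62.1, 41.4, 41.7 and 48.9 CPM in sham, 47.4, 63.2, 48.1, 44.2 and 56.9 in iTBS and 57.6, 50.5, 41.1, 51.8 and 64.6 in cTBS. Each group held libraries near the highest and the lowest level, and the differences from sham were 0.07 ± 0.13 after iTBS and 0.10 ± 0.13 after cTBS. With the striatal level as a covariate, alone or beside nuclear RNA, both differences changed sign, and that of cTBS reached -0.15. The iTBS difference also changed sign without iTBS 2. Unc5a, the most abundant Unc5 gene, read 119.7, 92.8, 119.7, 157 and 142 CPM in sham, 137, 110.4, 119, 119 and 141 in iTBS and 118, 127, 123, 143 and 125 in cTBS. Sham 2 and sham 4 were the extremes, and the differences were -0.01 ± 0.11 and 0.01 ± 0.11. Unc5b, which also guides vessels, read 27.02, 28.3, 22.8, 25.96 and 28.6 CPM in sham, 30.6, 29.7, 30.7, 22.8 and 33.01 in iTBS and 34.9, 27.6, 32.7, 31.6 and 33.9 in cTBS. The cTBS libraries other than cTBS 2 lay above all sham libraries, and the iTBS mean lay between, with iTBS 4 as low as sham 3. The cTBS difference from sham was 0.28 ± 0.09 (SE, adjusted p = 0.144) and the iTBS difference was 0.14 ± 0.09 (SE, adjusted p = 1.000). Without sham 4 the cTBS difference was 0.32 (adjusted p = 0.0417). When nuclear RNA was a covariate it was 0.20 ± 0.10, and with the striatal level added it was 0.11 (adjusted p = 0.901). The 6 oligodendrocyte markers moved with the groups as Unc5b did between sham and cTBS, since all 6 lay higher in cTBS than in sham (median log2 fold change 0.21, 1 at an unadjusted p under 0.05), and all 6 lay lower in iTBS than in cTBS (median -0.29, 4 at an unadjusted p under 0.05). Their mean level was 7.86 ± 0.20 log2 CPM in sham, 7.78 ± 0.21 in iTBS and 8.06 ± 0.21 in cTBS (SD, n = 5), and their part in the Unc5b difference was not tested. The largest fold change of Unc5c was 0.13 ± 0.08, in iTBS against cTBS, and that of Unc5d was -0.06 ± 0.08, in iTBS against sham.

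The 250 bases before the start of Unc5b (chr10:60831582-60831831, minus strand, RefSeq on GRCm38.p6, 5′ to 3′ along the gene) are shown beside that of Efnb2, since both genes lay higher after cTBS than after sham. 
Unc5b: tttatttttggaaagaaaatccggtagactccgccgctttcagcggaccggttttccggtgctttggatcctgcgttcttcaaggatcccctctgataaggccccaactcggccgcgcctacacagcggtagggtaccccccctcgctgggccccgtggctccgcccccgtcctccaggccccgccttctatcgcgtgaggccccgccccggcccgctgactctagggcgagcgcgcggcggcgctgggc
This window held 27 CpG dinucleotides, as did that of Efnb2, and no TGACG or EGR motif, so no letters are in capitals. 

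Because the libraries differed in cell markers and in nuclear RNA, the level of each guidance gene was set against the mean log2 level of 10 marker lists across the 15 libraries, after subtracting group means. Of 680 relations, 21 passed an adjusted p of 0.05 by Pearson's r and 4 by Spearman's rho, from 100000 permutations within groups (two-sided, Benjamini-Hochberg over all 680). They involved 18 of the 68 genes. The 17 that passed by r alone had adjusted p-values of 0.0258 to 0.0476 for r and 0.0748 to 0.103 for rho. Robo3 followed the nuclear RNA level most closely (r = 0.94, p = 0.000190, adjusted p = 0.0258, rho = 0.89, p = 0.000160, adjusted p = 0.0385), and r was 0.93 without sham 4 and cTBS 4. Robo3 ran against the microglial marker level (r = -0.88, p = 0.000110, adjusted p = 0.0258, rho = -0.88, p = 0.000250, adjusted p = 0.0425), with r = -0.83 without sham 4 and iTBS 1. Epha1 also followed the nuclear RNA level (r = 0.79, p = 0.000350, adjusted p = 0.0317, rho = 0.74, p = 0.00418, adjusted p = 0.0901), with r = 0.78 without sham 4 and cTBS 4. Sema3a (r = -0.77) and Efna3 (r = -0.82) ran against it by Pearson's r.

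Dcc followed the striatal marker level (r = 0.91, p = 4.00e-05, adjusted p = 0.0258, rho = 0.88, p = 0.000160, adjusted p = 0.0385), and r was 0.86 without sham 2 and cTBS 3. Robo1 (r = 0.81) and Sema6a (r = 0.78) followed the same level by Pearson's r. In the oligodendrocyte lineage Unc5b followed the myelin marker level (r = 0.87, p = 0.000180, adjusted p = 0.0258, rho = 0.84, p = 0.000740, adjusted p = 0.0748), with r = 0.85 without sham 2 and iTBS 4, and Ephb1 did likewise (r = 0.86). The precursor marker level was followed by Plxnb2 (r = 0.82, p = 0.000230, adjusted p = 0.0261, rho = 0.83, p = 0.000170, adjusted p = 0.0385), with r = 0.73 without iTBS 5 and cTBS 3, and by Pearson's r alone by Robo1 (r = 0.85), Sema6a, Sema6d, Plxna4 and Sema4d, while Sema6c ran against it (r = -0.73). Sema6b (r = 0.80), Sema7a (r = 0.81) and Unc5a (r = 0.85) followed excitatory neuron markers, and Plxnb1 (r = 0.78) followed astrocyte markers. All 21 kept their sign without the 2 libraries farthest from the median of the marker level.

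The relations that passed by r had values of 0.70 to 0.94 in size. Over all genes tested 23.5% had r above 0.7 and 10.6% below -0.7 with the nuclear RNA level, beside 4 and 4 of the 68 guidance genes. For the striatal level the shares over all genes were 2.44% and 2.24%, beside 7 and 4 guidance genes, and for the oligodendrocyte level 0.644% and 0.544%, beside 3 and 0. Shares over all genes were taken for these levels only. The relations with precursor, excitatory neuron, microglial and astrocyte markers therefore have no such background, and whether they are particular to guidance genes was not tested. The part of tissue composition in the group differences was not tested. The nuclear RNA and striatal levels used as covariates moved with the groups themselves. The fits with them therefore cannot tell the covariate and the stimulation apart.

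**Figure D4:**
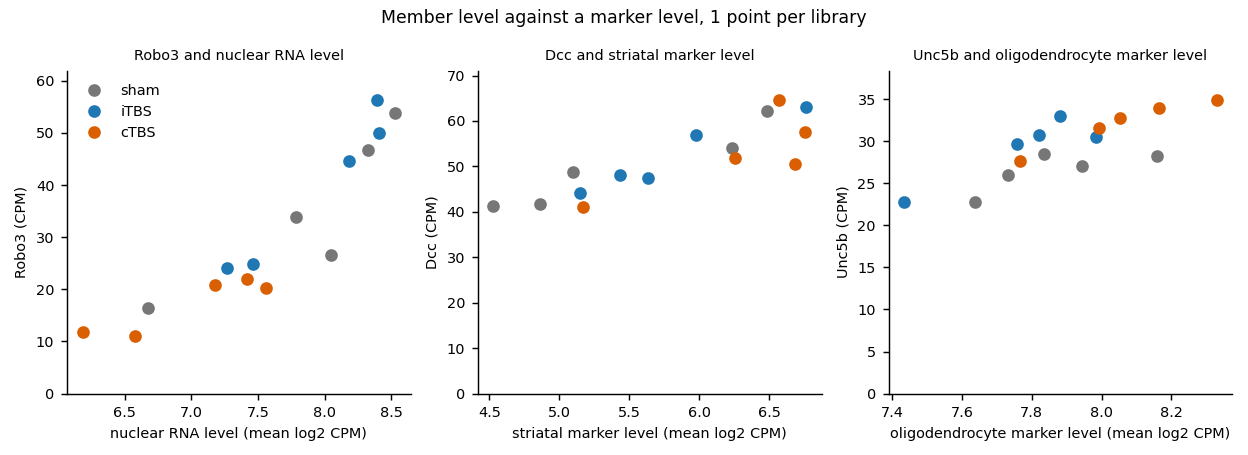
Level of Robo3, Dcc and Unc5b in CPM against the mean log2 CPM of nuclear-retained RNAs, striatal markers and oligodendrocyte markers, with 1 point per library and colours by group. Robo3 is highest where nuclear RNA is highest, and the lowest sham point is sham 4. Dcc and Unc5b are higher in libraries with higher marker levels.

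The intracellular and extracellular partners of these families were read from 4 lists of 53 genes, all of them tested. By edgeR's quasi-likelihood test 0 of 53 passed the adjusted threshold in any comparison, where 0% of all genes did. At an unadjusted p under 0.05 there was 1 higher and 0 lower after iTBS (1.89% of the list, 1.93% of all genes), 2 higher and 4 lower after cTBS (11.3% against 24.4%), and 5 higher and 3 lower in iTBS against cTBS (15.1% against 30.6%). After iTBS the smallest p-values were those of Flrt2, a membrane protein that binds Unc5 receptors (0.19 ± 0.07, adjusted p = 1.00), and of Dpysl5, of the collapsin response mediator family (-0.20 ± 0.12, adjusted p = 1.00). After cTBS they were those of Mical3, an actin-oxidising enzyme of the family that acts downstream of plexins (-0.31 ± 0.09, adjusted p = 0.144), and of Ptk2, focal adhesion kinase (-0.15 ± 0.05, adjusted p = 0.145). The same 2 genes led iTBS against cTBS, at 0.33 ± 0.09 and 0.19 ± 0.05 (adjusted p = 0.0838 for both). The median log2 fold change of the 53 genes was -0.0084, 0.014 and -0.017 in the 3 comparisons.

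Promoters of the guidance genes were rich in CpG. Of the 68 genes 58 matched the RefSeq promoter table by symbol, with 74 start sites, and the 250 bases before each start held a median of 15.5 CpG dinucleotides and 64.4% GC, against 6 and 52.4% over 32851 promoters. The full response element TGACGTCA, searched on both strands as were all motifs, stood in 1 of 74 windows (1.35%, Epha2) against 1.55% of all. Its core TGACG, which the full element contains, stood in 7 windows (9.46%) against 17.8% of all. The EGR motif GCGNGGGCG stood in 12 windows (16.2%) against 4.70% of all. Among windows with at least 10 CpG dinucleotides, 52 of guidance genes and 12417 of all genes, the EGR motif stood in 21.2% of the former and 11.8% of the latter, TGACG in 9.62% and 30.1%, and TGACGTCA in 0% and 3.08%. A match describes the letters in the window and nothing more.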

How the data were processed

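Total RNA of the cortex of 15 mice (5 each of iTBS, cTBS and sham, 1 library per animal, per the series' design text) was sequenced after ribosomal depletion with a stranded kit, per the labels' protocols. The authors deposited raw counts per Ensembl gene, together with variance-stabilized values near a log2 scale, which served here only as an alternative. GRCm39 (mm39) is the build, and fastp, STAR and DESeq2 are the tools, per the submitters' processing notes. Tool roles and versions, the annotation release, the read counter and its strand setting were not given in the sources used here. Overlapping and antisense genes are therefore uncertain.

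Symbols were matched by Ensembl identifier to an annotation of the earlier build GRCm38, with 52073 of 56748 identifiers named (97.7% of counts), and exon lengths came from it. Counts entered edgeR 4.0.16 (R 4.3.3), with TMM scaling, the default expression filter by group (22998 of 45315 genes with counts, all 68 guidance genes included), 1 term per group over all 15 libraries, and the quasi-likelihood F test. P-values were adjusted by Benjamini-Hochberg over all genes tested (threshold 0.05). The standard error is the absolute log2 fold change divided by the square root of F. CPM are TMM-scaled, and marker levels are mean log2 CPM with a prior count of 2.

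Single-library values are given for the gene with the most counts in each of 12 families and for the 8 genes with the smallest p in each of 3 comparisons, and genes whose groups do not overlap are counted. The 4 partner lists cover semaphorin, ephrin, Slit and netrin signalling. The 12 marker lists cover nuclear-retained RNAs, excitatory, inhibitory, striatal and thalamic neurons, choroid plexus, meningeal fibroblasts, endothelial and mural cells, oligodendrocytes, their precursors, astrocytes and microglia. The genes, lists and tests were chosen with earlier results of these data known. Choroid plexus and thalamic markers were left out of the correlations because their libraries fall into clusters. Alternatives were DESeq2 1.42.0, limma 3.58.1, other scaling, no filter, fewer samples, a replicate block and covariates. The count fit was tested on data simulated for cTBS against sham, with 50 of all genes tested changed at each size. It recovered 22 of 50 at 1.5-fold, 34 at 2-fold, 41 at 3-fold and 22 at 0.667-fold, with 9 false calls among 128. Smaller changes were not simulated.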

Additional observations from a re-analysis of the deposited data

Results flagged for a closer look

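Each group of 5 libraries of the 26 genes with single-library values was searched for a library standing apart, by the gap from the extreme library to its nearest neighbour as a share of the group's range, with Dixon's 95% limit of 0.71 for 5 values. Of 78 groups searched, 2 passed, where chance alone passes about 5% of groups. Robo2 in sham 4 read 225 CPM, while the other sham libraries read 205 to 209. Sema4c in cTBS 1 read 13.5 CPM, while the other cTBS libraries read 14.7 to 15.2. The cause was not tested for either library.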

How the results depend on the processing

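Over the 24 log2 fold changes picked by small p (15 genes) and 27 alternatives, 647 of 648 values kept their direction and 39 passed an adjusted p of 0.05. The exception was Sema4g in iTBS against sham, at 0.012 without sham 2, sham 5 and cTBS 4, a set chosen after seeing the data. The other 54 fold changes of the 26 genes with single-library values changed sign in 204 of 1458 values, in 38 fold changes of up to 0.198 in size, and passed in 0. In iTBS against sham no alternative called a gene. In cTBS against sham the DESeq2 Wald test called 1 guidance gene and 471 genes in all, and limma-voom with quality weights, added after seeing the data, 6 and 5461. In iTBS against cTBS these tools called 4 and 2699, and 7 and 6853. The cause was not tested.

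Leaving out each library in turn gave 0 to 0, 0 to 5 and 0 to 6 guidance genes, and 0 to 0, 0 to 5726 and 0 to 4474 genes in all, in iTBS against sham, cTBS against sham and iTBS against cTBS. The calls came without sham 4 (5 and 5726, then 6 and 3637, of 23508 genes tested), without iTBS 1 (1 gene in all in cTBS against sham, then 6 and 4474, of 23481) and without cTBS 5 (4 and 3380, of 23449). The guidance genes' median ranged over -0.016 to 0.036, -0.0090 to 0.079 and -0.070 to 0.0072. When nuclear RNA was a covariate the median was -0.058 in cTBS against sham and 0.051 in iTBS against cTBS. With the striatal level as a further covariate, added after seeing the data, it was -0.051 and 0.081. Beside nuclear RNA alone, edgeR's quasi-likelihood test gave 1 guidance gene higher and 6 lower at an unadjusted p under 0.05 in cTBS against sham. Over all 22998 genes there were 583 higher and 775 lower. In iTBS against cTBS 10 guidance genes lay higher and 1 lower, beside 1016 and 785 over all genes. In both comparisons 0 guidance genes passed the adjusted threshold.

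Same-numbered libraries deviated together in some pairs and apart in others (15 pairs, r from -0.56 to 0.72, 7 over 0.1). Of 15 libraries 5 correlated best with their own number, and whether this exceeds the share without pairing was not tested. With the replicate number as a block the guidance genes called were 0, 0 and 0, and all genes called 0, 0 and 5. Counting depth limits the sparsest genes, such as Epha1 with 356 counts.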
